A study of Mus musculus with 13 samples.

Results

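The Myc family and the Max network are a set of transcription factors that read the same short DNA element. Members were the 10 genes with the symbols Myc, Mycn, Mycl, Max, Mxd1, Mxd3, Mxd4, Mxi1, Mnt and Mlx, found through the RefSeq identifiers of the count tables. All 10 were present among 24072 identifiers, and all 10 were among the 12722 genes with enough counts to be tested. They were described in bulk RNA sequencing of common lymphoid progenitors, marrow cells that give rise to B, T and other lymphoid cells.

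The cells came from wild-type C57BL/6 mice and were sorted by flow cytometry on the surface proteins Ly6D and Gfra2. There were 3 Ly6D+Gfra2+ libraries (replicates 4, 5 and 6), 4 Ly6D+Gfra2- libraries (replicates 1, 2, 5 and 6) and 6 Ly6D-Gfra2- libraries (replicates 1 to 6). Total RNA was purified with Qiagen RNeasy Micro columns and amplified with NuGEN Ovation RNA-Seq kits. The labels give neither the age of the animals nor whether a library holds 1 animal or several, so the spread behind each p-value is that between libraries and may be technical.

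Myc, Mycn and Mycl are activators that bind DNA only as dimers with Max, at the element CACGTG, called the E-box. Max also pairs with the repressors Mxd1, Mxd3, Mxd4, Mxi1 and Mnt, which bring Sin3 corepressors and histone deacetylases to the same element and so compete with Myc. Mlx resembles Max, pairs with Mxd1, Mxd4 and Mnt, and links this network to the glucose-sensing factors Mlxip and Mlxipl. In lymphocyte precursors Myc is known for driving ribosome production, growth and division, and Mycn is known from blood stem cells and early B-cell precursors.

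Depth ranged from 6892728 to 23705975 counts per library, with 10837 to 13969 genes detected, and 3 counts corresponded to 0.133 to 0.389 CPM (counts per 1000000). Flt3, which marks these progenitors, lay between 761 and 1260 CPM in all 13 libraries. Il7r and Kit, listed with it as markers, were less even. Il7r had 749 to 1118 CPM in Ly6D+Gfra2+, 542 to 754 CPM in Ly6D+Gfra2- and 311 to 658 CPM in Ly6D-Gfra2- libraries. Kit had 132 to 209, 93.1 to 157 and 131 to 295 CPM in the same order. The sort marker Ly6d stood at 213 CPM in 1 library that carries the label Ly6D-Gfra2- (replicate 3), within the range of the libraries sorted as Ly6D-positive (158 to 507 CPM), whereas the other 5 libraries of its label had at most 8.30 CPM. It is kept under its label, and the results that rest on it are also given without it. Ly6D+Gfra2+ replicate 5 and Ly6D+Gfra2- replicate 1 had the fewest genes detected, 10837 and 11636. Next came Ly6D+Gfra2+ replicates 4 and 6 with 11873 and 12369, and all other libraries had 12904 to 13969. Fewer genes detected thus went with the Ly6D+Gfra2+ compartment. Library names carry a prefix of unstated meaning: it is P in 5 libraries, namely replicates 1 and 2 of Ly6D+Gfra2- together with replicates 1 to 3 of Ly6D-Gfra2-, and T in the other 8, among them every Ly6D+Gfra2+ library. Genes of the B lineage differed with the sort: the summed level of 8 B-lineage markers was 3569 to 3697 CPM in Ly6D+Gfra2+ cells, 347 to 425 CPM in Ly6D+Gfra2- cells and 62.6 to 368 CPM in Ly6D-Gfra2- cells, or at most 140 CPM there without replicate 3. The summed level of 6 plasmacytoid dendritic cell markers was 756 to 1141, 3329 to 4155 and 1488 to 4115 CPM in the same order, or at most 2490 CPM in Ly6D-Gfra2- cells without replicate 3. With that library left out, both sums were higher in every Ly6D+Gfra2- library than in any Ly6D-Gfra2- library. This did not hold for each marker. Bst2, Tcf4 and Cd79b overlapped between these compartments, and Pax5 and Igll1 had at most 0.992 CPM in both. The summed level of 5 T cell markers was at most 35.4 CPM in any library. The highest sums in any library were 382 CPM for 8 erythroid markers (in Ly6D-Gfra2- replicate 5), 6.07 CPM for 5 NK cell markers and 259 CPM for 4 plasma cell markers.

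RefSeq promoter windows of GRCm38.p6, from 250 bases before to 50 bases after the start site, were at hand for 9 of the 10 members, all but Myc, in 11 windows. They are shown for the members whose window holds the E-box, the element the network itself binds. CACGTG, which reads the same on both strands, stood in 4 of the 11 windows, those of Max, Mxd4, Mnt and Mlx. Over 32851 promoter windows of the same length, 7.15% held it. The stretches of 30 bases below have the E-box in capitals and run 5′ to 3′ on the strand of the gene. Its first base lies 3 bases before the start site in Max (chr12:76962234-76962263, minus strand) and 219 bases before it in Mxd4 (chr5:34187912-34187941, minus strand). The distance is 123 bases in Mnt (chr11:74830789-74830818, plus strand) and 40 bases in Mlx (chr11:101087238-101087267, plus strand). The start sites of the Max, Mnt and Mlx windows lie inside the gene spans given below, and the E-boxes of Max and Mlx fall within those spans.
Max: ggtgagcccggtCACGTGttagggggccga
Mxd4: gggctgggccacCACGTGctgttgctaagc
Mnt: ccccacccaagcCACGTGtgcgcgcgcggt
Mlx: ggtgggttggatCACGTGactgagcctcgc

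Mycn, the member with the largest differences between compartments, had no E-box in its window but had letters of the element read by E2F factors, the regulators of entry into S phase. TTTGGCGC, TTTCGCGC, TTTCCCGC and TTTGCCGC were searched on both strands. Among the 9 members searched only Mycn held any, 3 matches that begin 183, 179 and 168 bases before the start site, the first of which overlaps the next. Of all windows 2.26% held at least 1 match. The stretch from 200 to 111 bases before the Mycn start site (chr12:12941947-12942036, minus strand) is printed with the matches in capitals. A match describes the letters and shows no binding.
Mycn: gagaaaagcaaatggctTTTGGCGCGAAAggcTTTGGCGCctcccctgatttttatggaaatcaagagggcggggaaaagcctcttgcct

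Levels of different genes are compared per length, as CPM per kilobase of transcript, over transcripts of 1327 (Mxd3) to 4666 bases (Mxd1). Myc and its partner Max were the most abundant members in all 3 compartments. Myc averaged 448 ± 169 CPM per kilobase in Ly6D+Gfra2+ libraries, 307 ± 81.9 in Ly6D+Gfra2- libraries and 327 ± 79.1 in Ly6D-Gfra2- libraries (SD, n = 3, 4 and 6). Max averaged 378 ± 136, 259 ± 117 and 232 ± 42.3 CPM per kilobase in the same order, and the libraries of Myc and Max overlapped in each compartment. The lowest value of either gene exceeded the highest value of any other member within every compartment. These pairs of values were 293 against 19.6 (Mycl) CPM per kilobase in Ly6D+Gfra2+ cells, 107 against 76.0 (Mxd3) in Ly6D+Gfra2- cells and 179 against 42.4 (Mycn) in Ly6D-Gfra2- cells. Mycn was the last of the 10 members in Ly6D+Gfra2+ cells, at 1.23 ± 1.15 CPM per kilobase. It was the fifth in Ly6D+Gfra2- cells (15.4 ± 5.24) and the third in Ly6D-Gfra2- cells (21.3 ± 11.6). The other 8 members had mean levels of 1.23 to 25.8 CPM per kilobase, and neighbours in their order overlapped between libraries in every compartment.

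**Figure D1:**
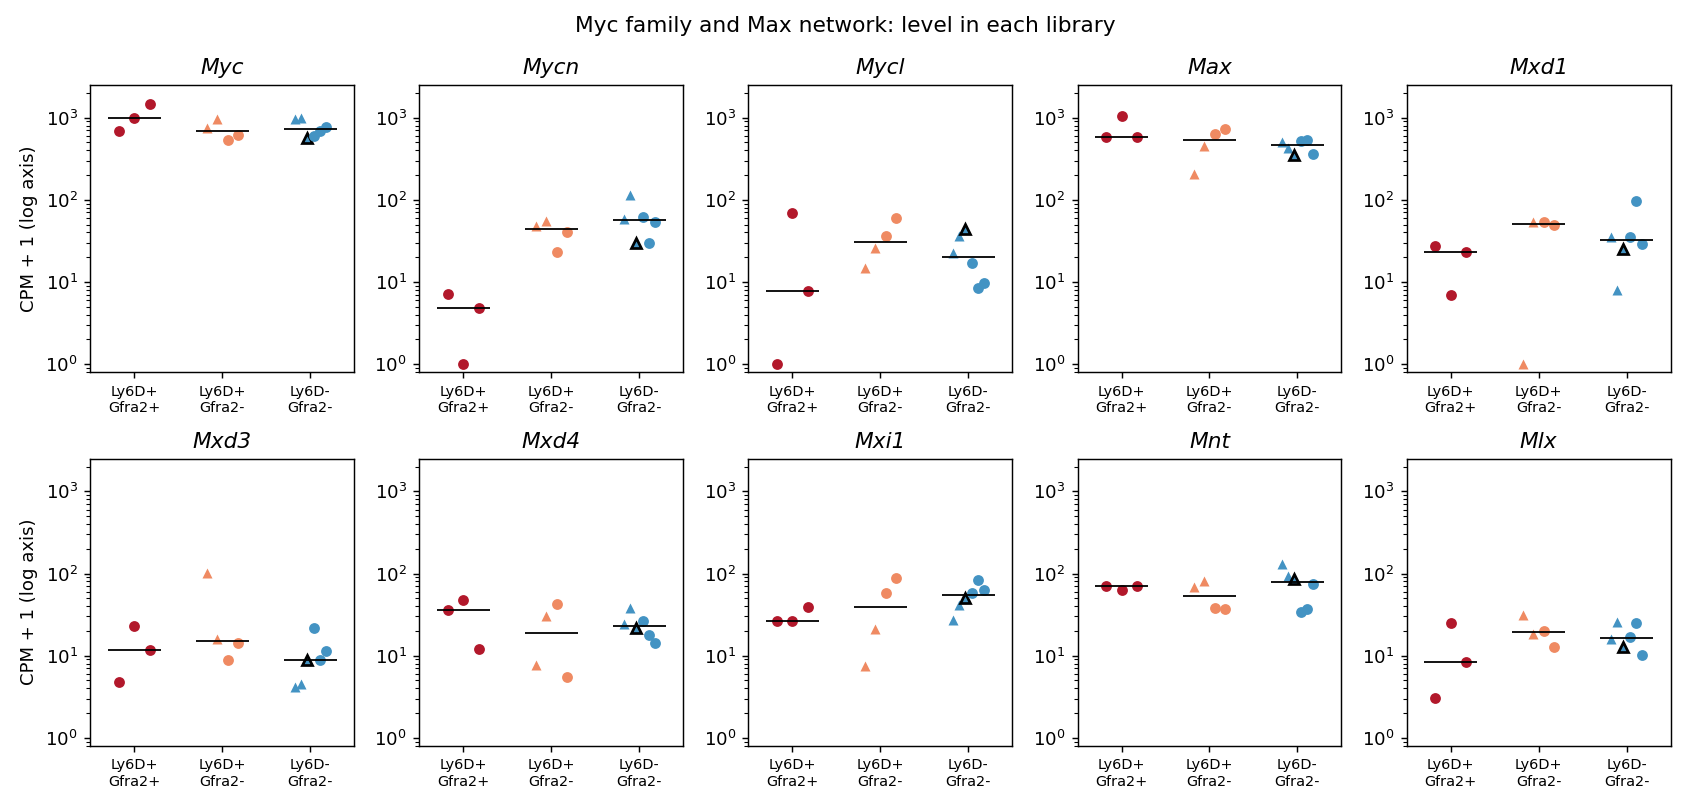
Level of each member in each library as CPM + 1 on a log axis, by compartment. Circles are libraries with prefix T, triangles those with prefix P, the symbol with a black edge is the library labelled Ly6D-Gfra2- replicate 3, and the line is the median. The 3 Ly6D+Gfra2+ libraries of Mycn, at 0 to 6.07 CPM, lie below all others, which start at 22.2 CPM.

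Mycn (NM_008709, chr12:12936093-12941836) showed the widest separation. It had 6.07, 0 and 3.79 CPM in Ly6D+Gfra2+ replicates 4, 5 and 6, which are 53, 0 and 35 counts. In Ly6D+Gfra2- replicates 1, 2, 5 and 6 it had 47.5, 54.9, 22.2 and 39.8 CPM, and in Ly6D-Gfra2- libraries 28.7 to 113 CPM with a median of 55.3. Every Ly6D+Gfra2+ library lay below every library of both other compartments, which overlapped each other. Mycn had a log2 fold change of -3.80 (SE 0.93, 95% interval -5.77 to -1.83) for Ly6D+Gfra2+ against Ly6D-Gfra2- cells. With an adjusted p of 0.0537 in edgeR's quasi-likelihood test over all genes (Benjamini-Hochberg), this missed the threshold of 0.05. Set against Ly6D+Gfra2- cells, Ly6D+Gfra2+ cells had -3.30 (SE 0.94, interval -5.30 to -1.31; adjusted p = 0.145), and for Ly6D+Gfra2- against Ly6D-Gfra2- cells -0.50 (SE 0.67; adjusted p = 0.999). All 3 comparisons share libraries with each other and are not independent.

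The Mycn difference stayed negative in all 22 alternative fits of each of these first 2 comparisons, whereas its size varied and the side of the threshold changed in some. The fits share the same non-overlapping libraries, so the direction could hardly turn. Against Ly6D-Gfra2- cells the log2 fold change ranged from -4.58 to -3.22 and the adjusted p from 6.65e-05 (DESeq2) to 0.224, below 0.05 in 7 fits. Leaving out Ly6D+Gfra2+ replicate 4 (adjusted p = 0.0475) or replicate 5, the library at 0 (adjusted p = 0.0309), was enough to pass it. Against Ly6D+Gfra2- cells it ranged from -4.13 to -2.65, with adjusted p from 0.00289 (DESeq2) to 0.974, below 0.05 in 2 fits. Among prefix T libraries alone the values were -3.85 (adjusted p = 0.224) and -3.23 (adjusted p = 0.439). With the library labelled Ly6D-Gfra2- replicate 3 left out, -3.87 (adjusted p = 0.0602) and -3.20 (adjusted p = 0.179) were obtained. Summed B-lineage markers were high and Mycn low in the same libraries. In bulk RNA, fewer cells of a type and less RNA per cell cannot be told apart. The part of the cell mixture in the Mycn difference was not tested. Nor was that of the fewer genes detected in Ly6D+Gfra2+ libraries.

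Myc (NM_010849, chr15:61985341-61990361), the broadly acting activator of the family, had 685, 989 and 1467 CPM in Ly6D+Gfra2+ replicates 4, 5 and 6. In Ly6D+Gfra2- replicates 1, 2, 5 and 6 it had 748, 972, 531 and 619 CPM, and in Ly6D-Gfra2- libraries 564 to 1002 CPM with a median of 727. The 3 compartments overlapped, and Ly6D+Gfra2+ replicate 6 was the highest library of all. Its fold change on the log2 scale was 0.78 (SE 0.27, interval 0.21 to 1.34; adjusted p = 0.217) for Ly6D+Gfra2+ against Ly6D+Gfra2- cells and 0.66 (SE 0.24, interval 0.15 to 1.18; adjusted p = 0.205) for Ly6D+Gfra2+ against Ly6D-Gfra2- cells. Within prefix T, all 3 Ly6D+Gfra2+ libraries lay above both Ly6D+Gfra2- libraries, and the fit there gave 0.86 (adjusted p = 0.402). The Ly6D-Gfra2- libraries of that prefix, at 603 to 775 CPM, overlapped with Ly6D+Gfra2+ replicate 4 (log2 fold change 0.61, adjusted p = 0.360). Between Ly6D+Gfra2- and Ly6D-Gfra2- cells the log2 fold change was -0.11 (interval -0.55 to 0.32; adjusted p = 0.999). None of these passed the threshold.

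Mycl (NM_008506, chr4:122995588-123002490), the third activator, was uneven among libraries of 1 compartment. It had 0, 68.6 and 6.72 CPM in Ly6D+Gfra2+ replicates 4, 5 and 6, and 13.7, 24.8, 35.1 and 59.2 CPM in Ly6D+Gfra2- replicates 1, 2, 5 and 6. Ly6D-Gfra2- libraries had 7.44 to 43.5 CPM with a median of 18.9. The Ly6D+Gfra2+ libraries thus held both the lowest and the highest value, and no comparison passed (adjusted p of 0.900 to 0.999). Without Ly6D+Gfra2+ replicate 5, the log2 fold change against Ly6D-Gfra2- cells turned to -2.35, against 0.55 with it.

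As shares of the summed Myc, Mycn and Mycl level per kilobase, Myc made up 95.6% to 99.5% in Ly6D+Gfra2+ libraries, 89.3% to 93.8% in Ly6D+Gfra2- libraries and 89.1% to 95.8% in Ly6D-Gfra2- libraries. Mycn made up 0.769%, 0% and 0.225% in Ly6D+Gfra2+ replicates 4, 5 and 6. Its share was 3.39% to 5.20% in Ly6D+Gfra2- libraries and 3.53% to 8.81% in Ly6D-Gfra2- libraries. The summed level of the 3 activators was 456 ± 168, 332 ± 84.1 and 355 ± 88.3 CPM per kilobase (SD, n = 3, 4 and 6) in the same order of compartments, and the libraries overlapped.

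**Figure D2:**
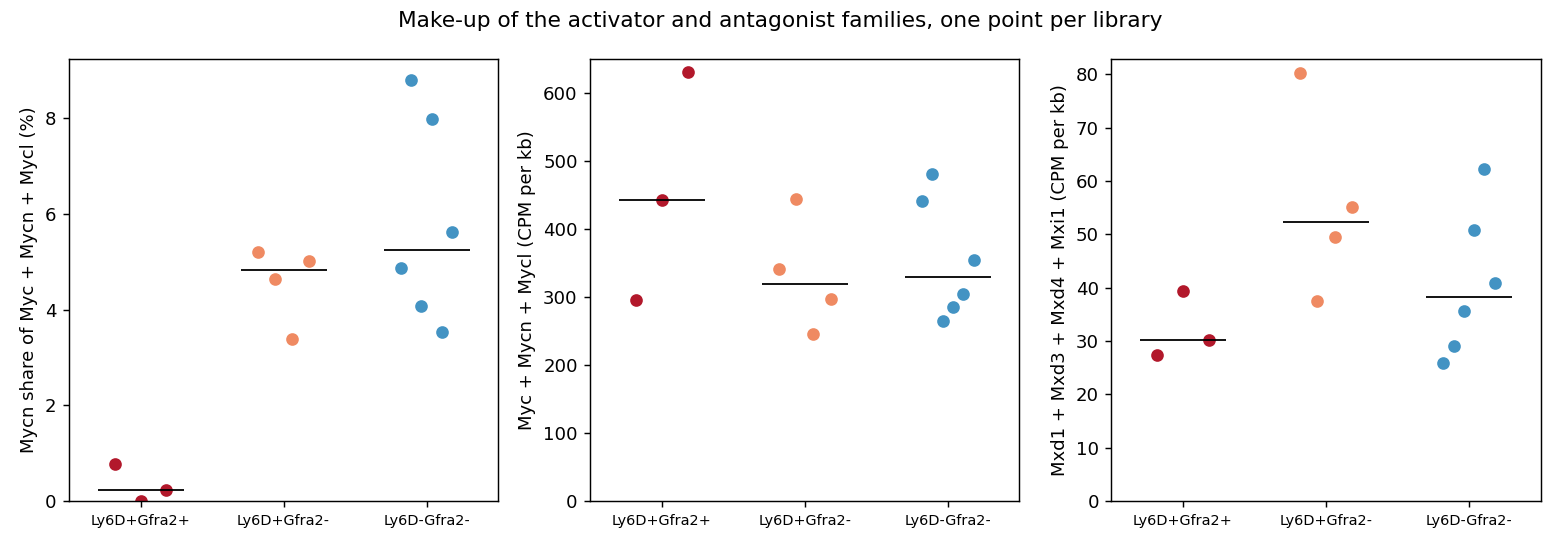
Make-up of the families, 1 point per library with the median as a line, by compartment. The left panel gives Mycn as a percentage of Myc, Mycn and Mycl together, the middle panel their summed level and the right panel the summed level of Mxd1, Mxd3, Mxd4 and Mxi1, both in CPM per kilobase. The Mycn share is at most 0.769% in Ly6D+Gfra2+ libraries and at least 3.39% elsewhere, while both sums overlap between compartments.

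Max (NM_008558, chr12:76937269-76962323), the common partner, had 578, 1039 and 585 CPM in Ly6D+Gfra2+ replicates 4, 5 and 6. It had 207, 450, 628 and 725 CPM in Ly6D+Gfra2- replicates 1, 2, 5 and 6, and 349 to 537 CPM in Ly6D-Gfra2- libraries with a median of 470. All Ly6D+Gfra2+ libraries lay above all Ly6D-Gfra2- libraries, by a narrow gap, and Ly6D+Gfra2- libraries overlapped both, with only Ly6D+Gfra2+ replicate 5 above them all. The log2 fold change for Ly6D+Gfra2+ against Ly6D-Gfra2- cells was 0.45 (SE 0.31, interval -0.20 to 1.10; adjusted p = 0.529). Without Ly6D+Gfra2+ replicate 5 it was 0.11 (range over leaving out each library 0.11 to 0.59).

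Among the repressors, Mxi1 (NM_001008542, chr19:53310128-53373293), also called Mxd2, had 25.8, 25.1 and 37.9 CPM in Ly6D+Gfra2+ replicates 4, 5 and 6. It had 6.56, 20.0, 56.2 and 88.1 CPM in Ly6D+Gfra2- replicates 1, 2, 5 and 6, and 26.6 to 83.1 CPM in Ly6D-Gfra2- libraries with a median of 53.1. Its level moved with the prefix. Within prefix T every Ly6D+Gfra2+ library (25.1 to 37.9 CPM) lay below every Ly6D+Gfra2- library (56.2 and 88.1 CPM) and every Ly6D-Gfra2- library (56.5 to 83.1 CPM). The Ly6D+Gfra2- and Ly6D-Gfra2- libraries with prefix P had 6.56 to 49.6 CPM. Ly6D+Gfra2+ cells had a log2 fold change of -1.54 (SE 0.57, interval -2.75 to -0.34; adjusted p = 0.211) against Ly6D-Gfra2- cells. Prefix T libraries alone gave -1.18 (adjusted p = 0.325), and DESeq2 alone among the 22 alternatives called it (adjusted p = 0.0483, range 0.0483 to 0.517). Against Ly6D+Gfra2- cells it was -0.87 (SE 0.55; adjusted p = 0.524).

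Mnt (NM_010813, chr11:74830806-74845725), the most widely expressed repressor of the network, was the most even member in Ly6D+Gfra2+ cells, with 69.3, 61.7 and 68.9 CPM in replicates 4, 5 and 6. It had 66.7, 79.3, 37.3 and 35.6 CPM in Ly6D+Gfra2- replicates 1, 2, 5 and 6, and 33.4 to 131 CPM in Ly6D-Gfra2- libraries with a median of 78.9. Outside Ly6D+Gfra2+ cells Mnt had 66.7 to 131 CPM with prefix P and 33.4 to 72.9 CPM with prefix T. For Ly6D+Gfra2+ against Ly6D+Gfra2- cells the log2 fold change was 0.90 (SE 0.39, interval 0.07 to 1.74; adjusted p = 0.337), close to the 0.86 among prefix T libraries (adjusted p = 0.630). Against Ly6D-Gfra2- cells it was 0.47 (SE 0.37; adjusted p = 0.603), and without the prefix term it turned to -0.17.

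Mxd1 (NM_010751, chr6:86647044-86669234), known from differentiating cells that leave the cycle, had 26.2, 5.98 and 22.1 CPM in Ly6D+Gfra2+ replicates 4, 5 and 6. It had 0, 52.4, 52.5 and 48.3 CPM in Ly6D+Gfra2- replicates 1, 2, 5 and 6, and 6.98 to 94.96 CPM in Ly6D-Gfra2- libraries with a median of 31.0. Apart from Ly6D+Gfra2- replicate 1, the Ly6D+Gfra2- libraries lay above all Ly6D+Gfra2+ libraries. The log2 fold change of Ly6D+Gfra2+ cells was -1.58 (SE 1.22, interval -4.15 to 0.999; adjusted p = 0.623) against Ly6D+Gfra2- cells and -1.47 (SE 1.15; adjusted p = 0.595) against Ly6D-Gfra2- cells.

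Mxd3 (NM_016662, chr13:55325170-55329900), the family member known from dividing cells, had 3.78, 22.0 and 10.7 CPM in Ly6D+Gfra2+ replicates 4, 5 and 6. Its highest value was 100.8 CPM in Ly6D+Gfra2- replicate 1, against 14.8, 7.93 and 13.3 CPM in replicates 2, 5 and 6 of that compartment and 3.18 to 20.5 CPM (median 7.91) in Ly6D-Gfra2- libraries. The fitted log2 difference of 1.92 (SE 0.97; adjusted p = 0.999) for Ly6D+Gfra2- against Ly6D-Gfra2- cells rested on that library: without it the value was 0.54, and within prefix T it was -0.28. The gene overlaps Prelid1 by 103 bases, and reads in that stretch cannot be assigned to 1 of the genes without a stated strand.

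Mxd4 (NM_010753, chr5:34176580-34187710), a repressor known from resting cells, had 35.2, 46.0 and 11.2 CPM in Ly6D+Gfra2+ replicates 4, 5 and 6. It had 6.75, 29.0, 41.9 and 4.47 CPM in Ly6D+Gfra2- replicates 1, 2, 5 and 6, and 13.1 to 36.8 CPM in Ly6D-Gfra2- libraries with a median of 22.0. The compartments overlapped fully, with adjusted p of 0.785 to 0.999 in the 3 comparisons. The summed level of Mxd1, Mxd3, Mxd4 and Mxi1 was 27.4, 39.3 and 30.1 CPM per kilobase in Ly6D+Gfra2+ replicates 4, 5 and 6. It was 37.5 to 80.2 CPM per kilobase in Ly6D+Gfra2- libraries and 25.8 to 62.3 in Ly6D-Gfra2- libraries, again overlapping.

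Mlx (NM_011550, chr11:101086707-101092207), the Max-like partner, was low throughout, with 2.06, 23.8 and 7.37 CPM in Ly6D+Gfra2+ replicates 4, 5 and 6. It had 30.1, 17.4, 18.9 and 11.7 CPM in Ly6D+Gfra2- replicates 1, 2, 5 and 6 and 9.21 to 24.96 CPM in Ly6D-Gfra2- libraries, with a median of 15.4. The groups overlapped in every comparison (adjusted p of 0.806 to 0.999). Mlx overlaps Psmc3ip by 67 bases, with the same limit on assigning reads. The gene spans of Mxd1 and Mxi1 also overlap long non-coding RNAs that the count tables do not hold, Gm38850 by 9111 bases and Gm30541 by 16740 bases.

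In all, edgeR called 0 of the 10 members in any comparison. For Ly6D+Gfra2- against Ly6D-Gfra2- cells, 0% of the 12722 genes tested were called, 0 members had an unadjusted p under 0.05 (4.71% of all genes), and DESeq2 called 0 members and 0.157% of all genes. By direction, 2.66% of all genes were higher and 2.04% lower at that unadjusted p. In Ly6D+Gfra2+ against Ly6D+Gfra2- cells, 0.409% of genes were called. There, 3 members had an unadjusted p under 0.05, against 13.2% of all genes: Myc and Mnt, which were higher (6.21% of all genes), and Mycn, which was lower (6.97%). DESeq2 called 1, Mycn, and 4.28% of all genes. For Ly6D+Gfra2+ against Ly6D-Gfra2- cells, 1.39% of genes were called. There, 3 members had an unadjusted p under 0.05, against 15.4% of all genes: Myc, which was higher (7.63% of all genes), and Mycn and Mxi1, which were lower (7.72%). DESeq2 called 2, Mycn and Mxi1, and 6.2% of all genes.

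Groups did not overlap for 0 members in Ly6D+Gfra2- against Ly6D-Gfra2- cells (1.53% of all genes) and for 1 member, Mycn, in Ly6D+Gfra2+ against Ly6D+Gfra2- cells (9.71% of all genes, 5.71% lower). In Ly6D+Gfra2+ against Ly6D-Gfra2- cells this held for 2 members, Max higher (4.03% of all genes) and Mycn lower (6.19%), where 10.2% of all genes did so in either direction. These counts among 10 genes are near the shares over all genes. The median log2 fold change of the members was -0.01, -0.46 and 0.46 in the 3 comparisons in the same order, beside medians over all genes of -0.01, 0.03 and 0.01.

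**Figure D3:**
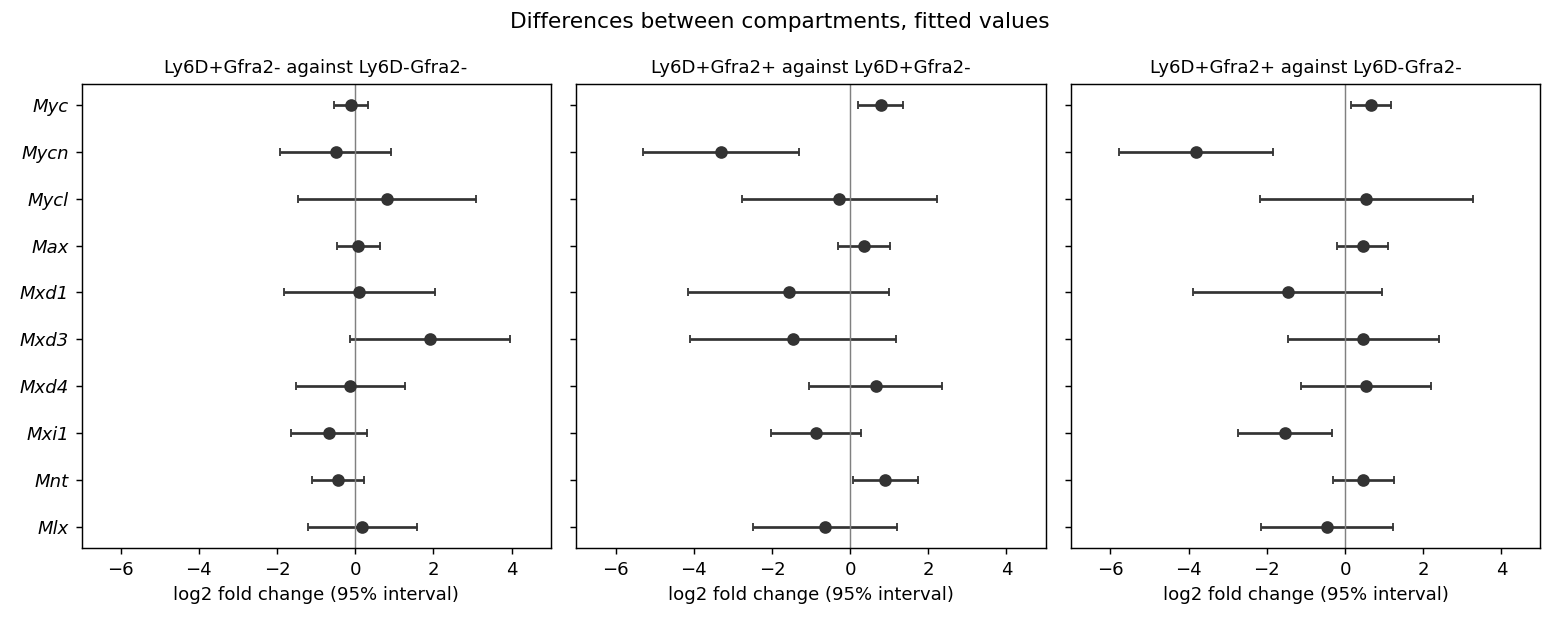
Fitted log2 fold change of each member with its 95% interval in the 3 comparisons, first-named group minus second, on a common axis. Intervals for Myc and Max are the narrowest and that of Mycn lies wholly below 0 in both comparisons of Ly6D+Gfra2+ cells, from -5.30 to -1.31 and from -5.77 to -1.83.

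Further genes of the network came from lists chosen with earlier results of these data known. Of 4 other partners of Max and Mlx, 2 were tested. Mlxipl was at 0 counts in all 13 libraries and Tcfl5 had 1 count in 1 library. Mlxip, the glucose-sensing partner of Mlx also called MondoA, was 978, 646 and 612 CPM in Ly6D+Gfra2+ replicates 4, 5 and 6, 454 to 558 CPM in Ly6D+Gfra2- libraries and 256 to 452 CPM in Ly6D-Gfra2- libraries. The compartments did not overlap in any of the 3 comparisons. Mlxip rose in Ly6D+Gfra2+ against Ly6D-Gfra2- cells, to 745 ± 202 CPM against 349 ± 70.4 CPM (SD, n = 3 and 6). The difference was 0.99 on the log2 scale (SE 0.21; adjusted p = 0.0305). In this comparison 1.39% of all genes were called, and of the 2 partners tested Mlxip alone. The direction held in all 22 alternatives, which share these non-overlapping libraries, and the call in 13 of them. It was lost with library size alone as the scaling (0.72, adjusted p = 0.125), within prefix T (0.92, adjusted p = 0.146), with the replicate block or only the 2 groups, and without any 1 of 5 libraries. These were Ly6D+Gfra2+ replicate 4, Ly6D+Gfra2- replicate 6 and Ly6D-Gfra2- replicates 4, 5 and 6 (adjusted p of 0.0536 to 0.0997). Between Ly6D+Gfra2- and Ly6D-Gfra2- cells the Mlxip value was 0.54 (adjusted p = 0.807). Mga, which pairs with Max in a repressive Polycomb complex, had 703 ± 62.3 CPM in Ly6D+Gfra2+ cells and 505 ± 57.3 CPM in Ly6D-Gfra2- cells (log2 fold change 0.40, SE 0.17; adjusted p = 0.271).

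Of 10 corepressor subunits that Mxd and Mnt proteins recruit, 0 were called in Ly6D+Gfra2+ against Ly6D+Gfra2- cells (0.409% of all genes). In Ly6D+Gfra2- against Ly6D-Gfra2- cells 0 were called too (0% of all genes). In Ly6D+Gfra2+ against Ly6D-Gfra2- cells 1 was called (1.39% of all genes). This was Sin3a, the scaffold of the complex, which rose to 704 ± 315 CPM against 324 ± 57.9 CPM (SD, n = 3 and 6). This is a difference of 1.05 on the log2 scale (SE 0.25; adjusted p = 0.0476). Its libraries were 523, 1067 and 521 CPM in Ly6D+Gfra2+ replicates 4, 5 and 6, 331 to 446 CPM in Ly6D+Gfra2- libraries and 263 to 425 CPM in Ly6D-Gfra2- libraries. The value leaned on replicate 5: without it the log2 fold change was 0.62 (adjusted p = 0.198), and the call held in 7 of the 22 alternatives. It was lost without each single library except Ly6D+Gfra2+ replicates 4 and 6 and Ly6D+Gfra2- replicate 1 (adjusted p of 0.0669 to 0.198). The median over the 10 subunits was 0.06 there, close to the 0.01 of all genes. When Ly6D+Gfra2+ were set against Ly6D+Gfra2- cells, Sin3a was higher and Sap30, another subunit, lower at an unadjusted p under 0.05 (adjusted p of 0.205 and 0.342). Of all genes, 6.21% were higher and 6.97% lower there at that unadjusted p.

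Of 7 cyclin-dependent kinase inhibitors and other genes that Myc is known to repress, 5 were tested and 1 was called, Ndrg1, in Ly6D+Gfra2+ against Ly6D-Gfra2- cells. There, 1.39% of all genes were called. Ndrg1, whose name records that Mycn represses it in mouse embryos, had 0.344, 0 and 3.03 CPM in Ly6D+Gfra2+ replicates 4, 5 and 6, which are 3, 0 and 28 counts. It had 11.5 to 35.2 CPM in Ly6D+Gfra2- libraries and 14.8 to 57.5 CPM in Ly6D-Gfra2- libraries, so that Ly6D+Gfra2+ cells stood below both without overlap. Ndrg1 fell by 5.21 on the log2 scale (SE 1.15; adjusted p = 0.0336) against Ly6D-Gfra2- cells, where the call held in 12 of 22 alternatives (adjusted p from 5.17e-07 with DESeq2 to 0.164 within prefix T). It was lost without Ly6D+Gfra2+ replicate 4, Ly6D+Gfra2- replicate 5 or 6, or Ly6D-Gfra2- replicate 1, 4, 5 or 6 (adjusted p of 0.0547 to 0.102). The size of the fitted value rested on single Ly6D+Gfra2+ libraries: it was -7.85 without replicate 6 and -4.64 without replicate 5. Against Ly6D+Gfra2- cells it was -4.50 (SE 1.11; adjusted p = 0.0883), or -7.14 and -3.93 without the same libraries, and DESeq2 called it. Cebpa, a regulator of granulocyte and monocyte development, had 0, 0 and 2 counts in Ly6D+Gfra2+ replicates 4, 5 and 6. It had 0.280 to 22.1 CPM in Ly6D+Gfra2- libraries and 0.649 to 11.8 CPM in Ly6D-Gfra2- libraries, with adjusted p of 0.297 and 0.218 for Ly6D+Gfra2+ cells against each. The 8 granulocyte and monocyte markers summed to 198 to 438 CPM in Ly6D+Gfra2+ libraries, below the 626 to 1329 CPM of Ly6D-Gfra2- libraries. The sum overlapped with the 423 to 575 CPM of Ly6D+Gfra2- libraries. Of 7 markers tested, 4 had positive and 3 negative log2 fold changes against Ly6D+Gfra2- cells (median 0.65). Against Ly6D-Gfra2- cells 1 was positive and 6 were negative (median -0.64). The part of these markers, or of the fewer genes detected in Ly6D+Gfra2+ libraries, in the values of Ndrg1 and Cebpa was not tested. Cdkn1a, the cell cycle inhibitor p21, had a mean of 221 ± 100 CPM in Ly6D+Gfra2+ cells, 94.9 ± 31.4 CPM in Ly6D+Gfra2- cells and 124 ± 73.8 CPM in Ly6D-Gfra2- cells (adjusted p of 0.256 and 0.324 for Ly6D+Gfra2+ cells against each). Of the 5 genes, 4 had a negative log2 fold change in each comparison of Ly6D+Gfra2+ cells, with medians of -1.80 against Ly6D+Gfra2- and -2.17 against Ly6D-Gfra2- cells, beside 0.03 and 0.01 over all genes. In both, 2 were lower (Ndrg1 and Cebpa) and 1 was higher (Cdkn1a) at an unadjusted p under 0.05. Of all genes, 6.97% were lower and 6.21% higher against Ly6D+Gfra2- cells, and 7.72% lower and 7.63% higher against Ly6D-Gfra2- cells.

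All 40 textbook genes activated by Myc were tested and edgeR called 0 of them in any comparison. In Ly6D+Gfra2+ against Ly6D+Gfra2- cells, 25 of the 40 had a positive log2 fold change with a median of 0.34, beside 0.03 over all genes. There, 8 higher and 1 lower had an unadjusted p under 0.05, beside 6.21% and 6.97% of all genes. DESeq2 called 5, beside 4.28% of all genes, and all 5 were higher: Ncl, Wdr43, Gnl3, Slc2a1 and Slc7a5. With library size alone as the scaling the median was 0.15, beside -0.15 over all genes. In Ly6D+Gfra2+ against Ly6D-Gfra2- cells, 29 had a positive value with a median of 0.14, beside 0.01 over all genes. This count and median depended on the fit. With library size alone 14 were positive and the median became -0.14, beside -0.25 over all genes. With no prefix term 20 were positive (median -0.0028, beside -0.019), and without Ly6D+Gfra2+ replicate 5, Ly6D+Gfra2- replicate 1 and Ly6D-Gfra2- replicate 3 together 21 (median 0.062, beside -0.035). With TMM scaling and the prefix term, 4 higher and 1 lower had an unadjusted p under 0.05, beside 7.63% and 7.72% of all genes, and DESeq2 called 0. In Ly6D+Gfra2- against Ly6D-Gfra2- cells, 26 of the 40 had a negative value with a median of -0.17, 2 higher and 3 lower had an unadjusted p under 0.05 (2.66% and 2.04% of all genes), and DESeq2 called 0.

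The smallest adjusted p of that list was that of Ncl, nucleolin, a nucleolar protein of ribosome production. It had 1549, 1927 and 2355 CPM in Ly6D+Gfra2+ replicates 4, 5 and 6, 1158 to 1816 CPM in Ly6D+Gfra2- libraries and 1331 to 2019 CPM in Ly6D-Gfra2- libraries. For Ncl the log2 difference was 0.68 (SE 0.17; adjusted p = 0.0814) against Ly6D+Gfra2- cells and 0.49 (SE 0.15; adjusted p = 0.133) against Ly6D-Gfra2- cells. Slc7a5, an amino acid importer, averaged 111 ± 39.7 CPM in Ly6D+Gfra2+ cells and 52.7 ± 14.0 CPM in Ly6D+Gfra2- cells (log2 fold change 1.504, SE 0.44; adjusted p = 0.157). Slc2a1, the glucose importer Glut1, averaged 83.0 ± 56.2 CPM and 22.7 ± 5.12 CPM in the same order (1.86, SE 0.53; adjusted p = 0.141). That value was 1.22 without Ly6D+Gfra2+ replicate 6 and 2.26 without replicate 5. Ly6D-Gfra2- cells had 43.5 ± 9.29 CPM of Slc2a1, and every Ly6D+Gfra2- library lay below all of theirs (log2 fold change -0.94, SE 0.43; adjusted p = 0.999).

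**Figure D4:**
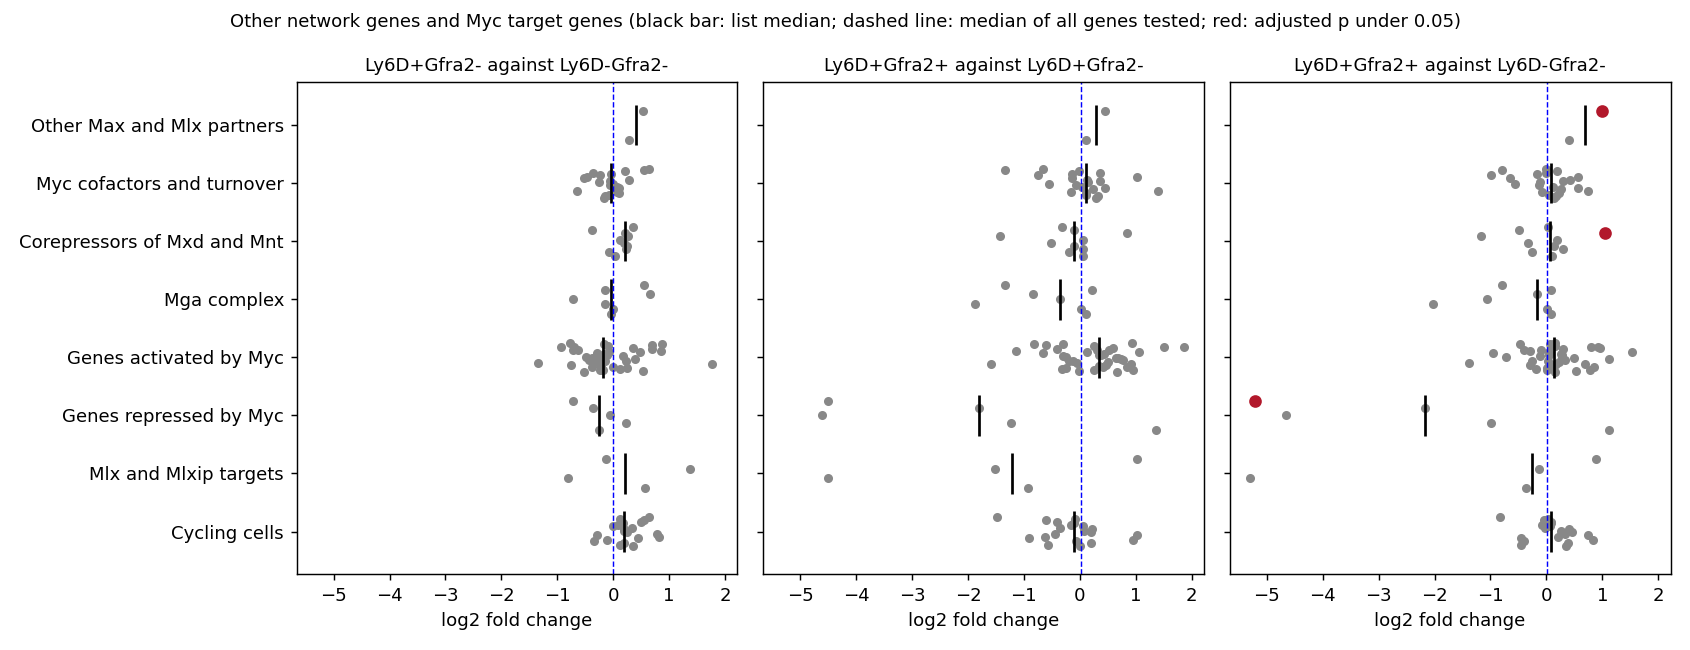
Fitted log2 fold changes of the genes in each list of the network, 1 point per gene, in the 3 comparisons, first-named group minus second. Red points mark genes with an adjusted p under 0.05, namely Mlxip, Sin3a and Ndrg1 in Ly6D+Gfra2+ against Ly6D-Gfra2- cells, grey points the others, black bars the median of each list and the dashed line the median of all genes.

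In the remaining lists edgeR called 0 genes in each comparison. Of 22 cofactors and turnover factors of Myc, 2 had an unadjusted p under 0.05 in Ly6D+Gfra2+ against Ly6D+Gfra2- cells, beside 13.2% of all genes. These were Ruvbl2, a helicase of chromatin complexes (167 ± 79.3 CPM against 91.8 ± 23.6 CPM), and Fbxw7, which marks Myc for degradation (88.8 ± 35.8 CPM against 40.4 ± 34.1 CPM), with adjusted p of 0.272 and 0.312. In Ly6D+Gfra2+ against Ly6D-Gfra2- cells 1 was lower and 1 higher at that unadjusted p, beside 7.72% and 7.63% of all genes. Skp2, another ubiquitin ligase subunit, had 59.2 ± 16.9 CPM against 113 ± 25.5 CPM (log2 fold change -0.98, SE 0.34; adjusted p = 0.175), and DESeq2 called it. Hcfc1, a cofactor, had 728 ± 283 CPM against 607 ± 141 CPM (log2 fold change 0.56, SE 0.22; adjusted p = 0.235). Among the 4 targets of Mlx and Mlxip, Txnip, which restrains glucose uptake, had 378 ± 152 CPM in Ly6D+Gfra2+ cells, 150 ± 50.6 CPM in Ly6D+Gfra2- cells and 162 ± 50.2 CPM in Ly6D-Gfra2- cells. The fitted log2 difference of Ly6D+Gfra2+ cells was 1.03 (SE 0.30; adjusted p = 0.147) against Ly6D+Gfra2- cells and 0.89 (SE 0.28; adjusted p = 0.130) against Ly6D-Gfra2- cells, and DESeq2 called both. Ly6D+Gfra2+ libraries of Txnip overlapped with neither of the other compartments. The other 3 targets, Arrdc4, Pklr and Tbc1d2, had negative fitted values in both comparisons (adjusted p of 0.386 to 0.978), and the medians of the list were -1.21 and -0.25. These 3 were low: the 4 targets summed to means of 388, 170 and 178 CPM in Ly6D+Gfra2+, Ly6D+Gfra2- and Ly6D-Gfra2- libraries, most of it Txnip. The list medians thus rest on genes with few counts. The 7 genes of the Mga complex had medians of -0.03, -0.35 and -0.17 in the 3 comparisons, with 0, 1 and 1 genes at an unadjusted p under 0.05 and 0 called by DESeq2. The 20 genes of cycling cells had medians of 0.19, -0.10 and 0.08, with 1, 2 and 1 genes at an unadjusted p under 0.05, and DESeq2 called 0, 2 and 0. Over all genes the shares in the same order were 4.71%, 13.2% and 15.4% at that unadjusted p. DESeq2 called 0.157%, 4.28% and 6.2% of all genes. The summed level of the cycling genes was 5775 to 6096 CPM in Ly6D+Gfra2+, 5674 to 6459 CPM in Ly6D+Gfra2- and 4710 to 6490 CPM in Ly6D-Gfra2- libraries.

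The genes most like 3 of the members across the 13 libraries were found among 10412 genes by Pearson's r of log2(CPM + 1), a description over libraries that share compartments, prefixes and depth. For Myc they were Ncl (r = 0.904), Impact (0.887) and Uqcc2 (0.823). For Mycn they were Nfatc2 (0.947), Ctif (0.935) and C2cd2 (0.931), and for Mxd4 Mrpl16 (0.861), Zscan22 (0.857) and Lipo3 (0.852). Nfatc2 averaged 2.12 CPM in Ly6D+Gfra2+ cells, 45.3 CPM in Ly6D+Gfra2- cells and 60.6 CPM in Ly6D-Gfra2- cells. Among the members themselves, the highest r were those of Mxd1 with Mxi1 (r = 0.756) and of Mycl with Mlx (0.691). The lowest were those of Mycn with Max (-0.620) and of Mxd1 with Mxd3 (-0.595). By ranks (Spearman) these pairs had 0.560, 0.330, -0.604 and -0.253 in the same order, so Mycl with Mlx and Mxd1 with Mxd3 were weaker. Ly6D+Gfra2- replicate 1 held the lowest Mxd1 (0 CPM) and the highest Mxd3 (100.8 CPM). Ly6D+Gfra2+ replicate 4 held the lowest Mycl and Mlx (0 and 2.06 CPM). Myc and Max, the abundant pair, had an r of 0.120.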

How the data were processed

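Total RNA of 13 libraries was sequenced. The authors deposited 1 table of read counts per library, with 1 row for each RefSeq identifier and no normalization. The submitters' processing notes name FastQC, HISAT, TopHat, HOMER, DESeq and mm10, with no roles or versions. The annotation release, the strand setting and the treatment of reads with several positions are not given in the sources used here. Of 24072 identifiers, 23815 were named from the RefSeq table of GRCm38.p6 (mm10), which also gave coordinates and promoter windows, 144 from GENCODE M21, and 113 had no name. Transcript lengths are those of GENCODE M21.

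Counts were tested with edgeR 4.0.16 in R 4.3.3 by the quasi-likelihood test, two-sided. All 13 libraries entered 1 fit with terms for compartment and name prefix, TMM scaling and filterByExpr (minimum count 10, total 15). P-values were adjusted by Benjamini-Hochberg over 12722 genes, called under 0.05. CPM is per 1000000 of the TMM-scaled total, and intervals use the fitted SE and its degrees of freedom. The script was tested on simulated data. Alternatives included DESeq2 1.42.0, other scalings, no filter, other designs, single prefixes and leaving out each library. Leaving out 3 libraries together (Ly6D+Gfra2+ replicate 5, Ly6D+Gfra2- replicate 1 and Ly6D-Gfra2- replicate 3) was added after seeing the data.

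Members and gene lists were chosen with earlier results of these data known. All members are named; of each list, up to 4 genes with the smallest p in a comparison; for Myc, Mycn and Mxd4, the 3 most correlated genes of at least 5 CPM. Groups come from the labels.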

Additional observations from a re-analysis of the deposited data

Results flagged for a closer look

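Each member was checked for a library far from the others of its compartment, in Ly6D+Gfra2- and Ly6D-Gfra2- cells, 20 groups in all (the 3 Ly6D+Gfra2+ libraries were too few). Chance marks about 1 in 20 groups if values are normal and groups independent, and 3 were marked. CPM of genes with few counts need not be normal. Ly6D+Gfra2- replicate 1 was marked for both Mxd1 and Mxd3, so the number cannot be read as an excess. Mxd1 was at 0 CPM in Ly6D+Gfra2- replicate 1, far below the 48.3 to 52.5 CPM of the other 3 libraries. Mxd1 was also at 94.96 CPM in Ly6D-Gfra2- replicate 5, far above the 6.98 to 34.2 CPM of the other 5. Among granulocyte and monocyte markers, that replicate had the highest S100a8, S100a9, Ltf and Lyz2 of any library (87.4, 177, 35.6 and 212 CPM). Its Mpo, Elane, Prtn3 and Csf1r were not the highest. The part of these markers in its Mxd1 value was not tested. Mxd3 was at 100.8 CPM in Ly6D+Gfra2- replicate 1, against 7.93 to 14.8 CPM in the other 3. That library has prefix P and, with 11636 genes, the fewest detected genes of its compartment, and the part of either in these values was not tested.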

How the results depend on the processing

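Counts of called genes depended on the fit. For Ly6D+Gfra2- against Ly6D-Gfra2- cells the 0 called became 20 with DESeq2, 9 with no filter, 1 within prefix T and 23 without the 3 libraries left out together, and 0 to 16 when single libraries were left out (16 without the library labelled Ly6D-Gfra2- replicate 3). For Ly6D+Gfra2+ against Ly6D+Gfra2- cells the 52 became 545 with DESeq2, 164 with no filter, 103 without the prefix term, 8 with only the 2 groups, 9 within prefix T and 12 to 184 with single libraries left out (184 without Ly6D+Gfra2+ replicate 6). There, leaving out Ly6D+Gfra2+ replicate 5, Ly6D+Gfra2- replicate 2, 5 or 6 or Ly6D-Gfra2- replicate 1, 2, 4, 5 or 6 took it to 24 or fewer and Ly6D+Gfra2+ replicate 4 to 94. For Ly6D+Gfra2+ against Ly6D-Gfra2- cells the 177 became 789 with DESeq2, 111 with library size alone, 318 with no filter, 72 with only the 2 groups, 62 within prefix T and 49 to 372 with single libraries left out (372 and 115 without Ly6D+Gfra2+ replicates 6 and 5, 106 without Ly6D+Gfra2- replicate 6, 90 without Ly6D-Gfra2- replicate 1 and 49 to 55 without Ly6D-Gfra2- replicate 4, 5 or 6). Whether replicate numbers pair the libraries is not stated, though the library names carry the same numbers. After centring each gene within compartment and prefix, 9 same-numbered pairs correlated at -0.02 to 0.04, and 5 of 12 libraries correlated best with their own number. Centring was over only 2 or 3 libraries at a time and no rate by chance was worked out, so this cannot decide whether they are paired. With the replicate block in place of the prefix, the counts were 8, 25 and 92, with 0, 20 and 85 genes shared, and Mycn was called against Ly6D-Gfra2- cells (-4.52, adjusted p = 0.0468). Library size alone shifted the median of all genes by -0.17 and -0.26 in the comparisons of Ly6D+Gfra2+ cells, and gave 15 higher and 33 lower calls against Ly6D+Gfra2- cells (26 and 26 with TMM) and 45 higher and 66 lower against Ly6D-Gfra2- cells (118 and 59 with TMM). No filter shifted it by -0.14 against Ly6D-Gfra2- cells, and the block by -0.15 and -0.20. Of the member fold changes over alternatives other than single libraries, 250 kept direction and side of the threshold, 8 became called and 22 turned, none of these called. In Ly6D+Gfra2- against Ly6D-Gfra2- cells these were Myc 0.027, Mycl -0.79 and Max -0.38 within prefix P; Max -0.0077, Mxd1 -0.23 and Mlx -0.11 with the block; Mxd1 -0.053, Mxd3 -0.28, Mxd4 0.32, Mxi1 0.11 and Mlx -0.10 within prefix T; Mxd4 0.19 and Mlx -0.14 without the 3 libraries. In Ly6D+Gfra2+ against Ly6D+Gfra2- cells they were Max -0.10 without the 3 libraries and Mxd3 0.20 with only the 2 groups and 0.19 within prefix T. In Ly6D+Gfra2+ against Ly6D-Gfra2- cells they were Mycl -1.03 with the block and -1.99 without the 3 libraries, Mxd3 -0.086 with only the 2 groups, -0.10 within prefix T and -0.52 without the 3 libraries, and Mnt -0.17 without the prefix term. Leaving out single libraries turned 15 of 390 member values, and the ranges that crossed 0 were, in Ly6D+Gfra2- against Ly6D-Gfra2- cells, Max -0.057 to 0.36, Mxd1 -1.20 to 0.50, Mxd4 -1.08 to 0.24 and Mlx -0.060 to 0.38. They were Mycl -3.17 to 0.40 in Ly6D+Gfra2+ against Ly6D+Gfra2- cells, and Mycl -2.35 to 1.12, Mxd3 -0.29 to 1.09 and Mlx -1.69 to 0.018 in Ly6D+Gfra2+ against Ly6D-Gfra2- cells. The cause of these changes was not tested. With 3 libraries, 1 of them at 0, depth and number of libraries limit the precision of the Mycn values.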
